A study of Mus musculus with 20 samples.

Results

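The transcripts of 5 known p53 target genes, Ccng1, Aen, Cdkn1a, Mdm2 and Gadd45a, were followed through a heat shock in mouse fibroblasts with and without the heat shock factor HSF1. The genes were taken by name, and each had at least 1 probe that lists a single gene on the array. All 5 passed the filter on missing values, with 13 of the 20881 probes and 5 of the 10625 genes tested. Ccng1 had 5 probes, Mdm2 had 3, Aen and Gadd45a had 2 each, and Cdkn1a had 1. A gene is said to pass, rise or fall where its p in limma, a linear model fitted to every gene, was under 0.05 after Benjamini-Hochberg adjustment over all genes. In the later hours of heat Ccng1 fell in cells of both genotypes, and Mdm2 rose past the threshold in the cells with HSF1. The genotypes were not shown to differ in the Mdm2 rise, and its call was lost under 5 of 8 other settings and on 1 omission of an array. Aen, Cdkn1a and Gadd45a passed the test in no comparison.

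The p53 protein is a transcription factor that is held low in unstressed cells and is stabilised by DNA damage and other stress. It then raises genes that stop the cell cycle, repair DNA or start cell death, and it also raises Mdm2, whose protein marks p53 for degradation and so closes a feedback loop. HSF1 is the main transcription factor of the heat shock response and switches on chaperone genes such as Hspa1a, which encodes the inducible HSP70.

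The series holds 20 two-colour spotted arrays from 2 genotypes, HSF1 +/+ fibroblasts (called WT here) and HSF1 -/- fibroblasts (called KO here), which the labels describe as cell lines. Each genotype was sampled at 0 h on 3 arrays and at 0.5, 1, 2, 3, 4, 6 and 8 h of heat shock on 1 array each, and the labels give no temperature. On every array the sample was labelled with Cy5 and set against 1 Cy3-labelled pool, mixed from mRNA of unheated fibroblasts and of fibroblasts after 1 h of heat, so a level is a log2 ratio of sample to pool after subtraction of the median of its array. The heated arrays were taken as an early window (0.5 to 2 h, n = 3 in each genotype) and a late window (3 to 8 h, n = 4 in each genotype), so the spread within a window includes change over time. Genotype cannot be told apart from other differences between the cell lines, and the labels do not say whether each line is 1 clone or came from 1 animal.

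Each array gave between 39037 and 42220 probe values, and r between any pair of arrays over the probes was 0.42 to 0.81. The Hsf1 transcript was not analysed here. As a check of the labels, 4 of 4 heat shock genes (Hspa1a, Hspa1b, Dnajb1 and Hsph1) rose in the late window in WT, by 2.11 to 5.83 (limma, adjusted p = 0.00121 to 0.00269), and none did in KO, where 0 had an unadjusted p under 0.05 and the differences were -0.52 to 0.0036. Of 13 fibroblast markers 9 were measured. Their median difference was -0.36 in the late WT window and -0.32 in the late KO window, and the levels themselves, being ratios to a fibroblast pool, cannot show which cell type was present. In each window 8 of the 9 lay below 0, against 51.8% (WT) and 51.9% (KO) of all genes. Pdgfra fell in WT (-0.63, limma, adjusted p = 0.0483) and Col1a2 in KO (-0.59, adjusted p = 0.0293), and no other of the 9 passed there. Of 45 markers of macrophages, epithelium, endothelium, muscle, fat and nerve, 34 were measured. In the late WT window 1 of the 34 fell (Fcgr1, by 1.41) and none rose, where 7.27% of all genes passed, and their median difference was 0.02. In the late KO window 1 rose and 2 fell, where 10.7% of all genes passed, with a median of 0.07. The part of these markers in the results was not tested, and fewer cells of a type and less RNA per cell cannot be told apart in such samples.

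The sequences upstream of the genes were set beside the values because p53 and HSF1 bind DNA at known motifs. They are from the RefSeq promoter table for GRCm38.p6, in which all 5 genes matched with 7 windows of 300 bases (250 before and 50 after a start of transcription). The p53 motif was searched as its standard 20-base consensus, a pair of 10-base units with no spacer, on both strands. The heat shock element was searched as GAANNTTC and TTCNNGAA, each a pair of inverted repeats of its core and each its own reverse complement. Below are the stretches before the start of Ccng1 and Mdm2, the genes whose transcripts passed the test, and of Cdkn1a, which holds a match of the same rank as Ccng1 and did not pass. Capitals mark matches to a single p53 unit, to the full site with at most 3 mismatches, or to a heat shock motif.
Ccng1 (chr11:40755310-40755536, minus strand): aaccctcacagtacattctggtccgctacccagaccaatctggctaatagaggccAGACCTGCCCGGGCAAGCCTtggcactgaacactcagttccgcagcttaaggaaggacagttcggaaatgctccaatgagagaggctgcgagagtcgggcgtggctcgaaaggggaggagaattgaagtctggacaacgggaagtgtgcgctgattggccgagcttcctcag
Cdkn1a (chr17:29090729-29090978, plus strand): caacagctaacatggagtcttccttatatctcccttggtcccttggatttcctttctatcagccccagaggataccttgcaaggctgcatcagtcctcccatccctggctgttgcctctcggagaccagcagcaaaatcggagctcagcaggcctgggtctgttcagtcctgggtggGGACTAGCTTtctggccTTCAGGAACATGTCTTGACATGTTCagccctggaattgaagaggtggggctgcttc
Mdm2 (chr10:117710759-117711008, minus strand): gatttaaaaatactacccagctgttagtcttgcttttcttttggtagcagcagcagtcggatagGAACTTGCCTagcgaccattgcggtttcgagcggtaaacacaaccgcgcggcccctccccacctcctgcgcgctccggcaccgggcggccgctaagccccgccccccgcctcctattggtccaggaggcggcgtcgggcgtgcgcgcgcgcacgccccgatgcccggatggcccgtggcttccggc

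The best match before Ccng1, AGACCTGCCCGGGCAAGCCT at chr11:40755462-40755481 on the minus strand, has 1 mismatch to the 20-base consensus. It begins 195 bases before the start of its window, at 40755286, and 172 bases before the outermost end of the gene in RefSeq, at 40755309. The printed stretch stops at that end and leaves out the 23 bases of the window between them. Its first unit, AGACCTGCCC, holds the mismatch, and the other, GGGCAAGCCT, has 0. The best match before Cdkn1a, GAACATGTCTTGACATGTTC at chr17:29090928-29090947 on the plus strand, begins 51 bases before the first start and also has 1 mismatch. The window of the second Cdkn1a start held no unit without mismatch, and its best match had 5 mismatches. Matches with at most 1 mismatch stood in 0.0883% of the 32851 promoter windows of the table. For Aen the best match was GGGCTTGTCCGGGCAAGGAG at chr7:78895937-78895956 on the plus strand, with 3 mismatches, and the best match of Gadd45a also had 3, as good as in 6.29% of windows. The Mdm2 window held 1 unit without mismatch, GAACTTGCCT, a motif present in 8.36% of windows, and its best full match had 5 mismatches, and 76.6% of windows had a match at least as good. Of the 7 windows only the first of Cdkn1a held a heat shock motif, where TTCAGGAA shares its last 3 bases with the p53 match. Either heat shock motif stood in 15.1% of windows. A match is a description of letters and not of binding, and Mdm2, for one, is known to be switched on by p53 from a second start inside the gene that the table's window does not cover.

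In RefSeq, Ccng1 lies on chromosome 11 from 40748552 to 40755309, Mdm2 on chromosome 10 from 117688875 to 117710758, Cdkn1a on chromosome 17 from 29090979 to 29100722, Gadd45a on chromosome 6 from 67035096 to 67037407 and Aen on chromosome 7 from 78895927 to 78911209.

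**Figure D1:**
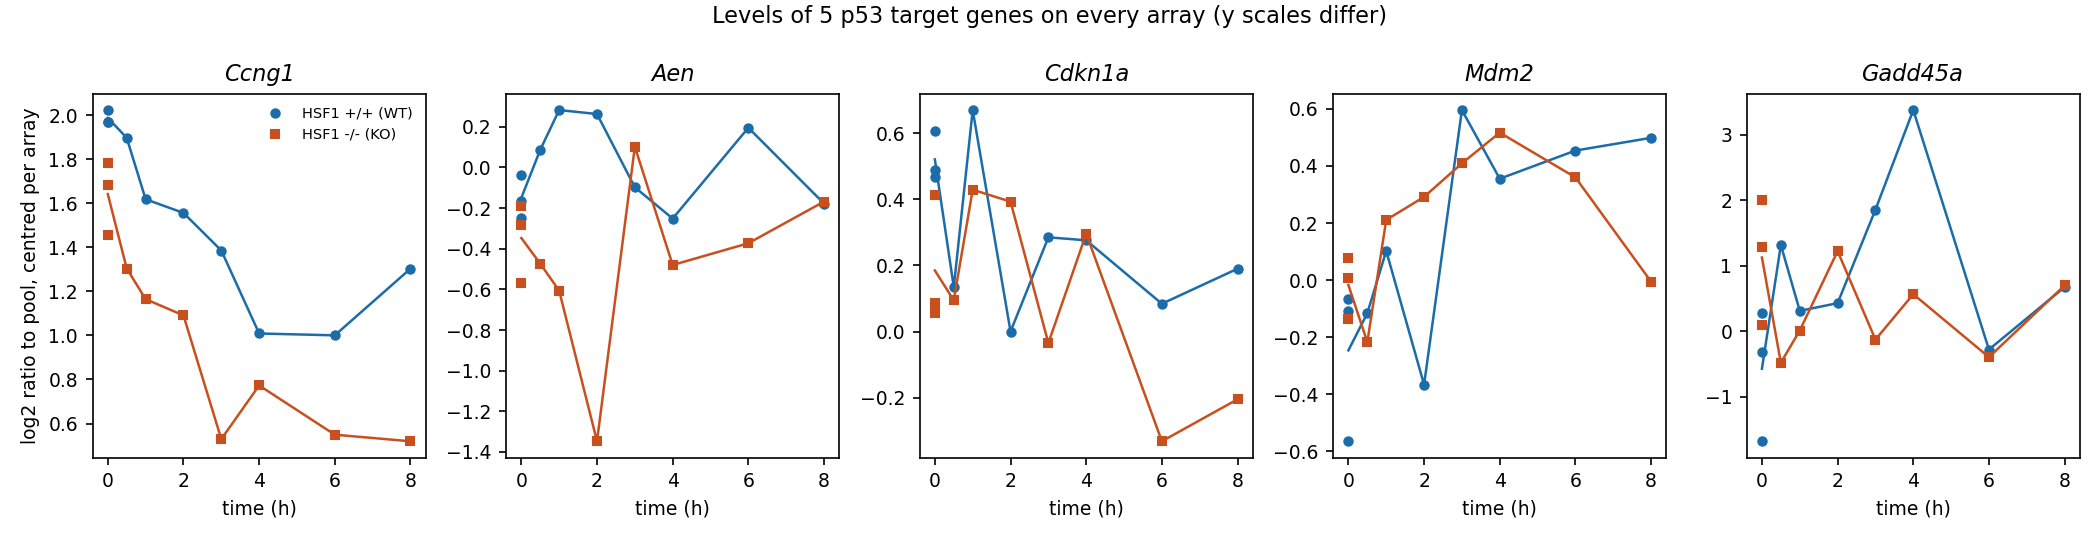
Level of each gene (log2 ratio to the pool, centred per array) against hours of heat, with 1 point per array and a line through the mean of each time, in blue circles for WT and orange squares for KO. Ccng1 goes from 1.97 to 2.02 at 0 h to 1.00 to 1.39 in the late WT window and from 1.46 to 1.78 to 0.52 to 0.77 in KO, while the other genes cross between genotypes.

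Mdm2, the ubiquitin ligase that p53 raises and that in turn removes p53, was higher late in heat in WT. Its levels at 0 h in WT were -0.56, -0.06 and -0.11. They were -0.12, 0.10 and -0.37 at 0.5, 1 and 2 h, and 0.60, 0.36, 0.45 and 0.50 at 3, 4, 6 and 8 h. The late WT levels lay above all 3 levels at 0 h, which held for 9.42% of all genes. They also lay above all 3 early ones, which held for 6.29%. The first array at 0 h was the lowest of all 10 WT arrays, through the second Mdm2 probe, which read -3.90 there and -3.30 at 2 h. The late WT values of the first probe overlapped those at 0 h and the early ones, and those of the third overlapped the early ones. In KO the levels at 0 h were 0.08, 0.01 and -0.14, those at 0.5, 1 and 2 h were -0.22, 0.21 and 0.29, and those at 3, 4, 6 and 8 h were 0.41, 0.52, 0.36 and -0.01. The late KO levels overlapped those at 0 h through the 8 h array only.

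The late rise of Mdm2 in WT was 0.72 ± 0.17 (log2 difference ± SE, n = 4 against 3), or 1.65-fold, and passed the threshold (limma, adjusted p = 0.0206). In this comparison 2 of the 5 genes passed, against 7.27% of all genes tested, and Mdm2 ranked 348 by p among the 10625 genes. In KO the late difference was 0.34 ± 0.17 (adjusted p = 0.241). The difference between the late responses, WT minus KO, was 0.38 ± 0.25 with a 95% interval from -0.14 to 0.91 (adjusted p = 0.693), so the 2 genotypes were not shown to differ in this rise. The call in WT was lost without the first WT array at 0 h (0.56, adjusted p = 0.0852), under quantile normalization (0.64, adjusted p = 0.0576), with 1 probe for each gene, the one of highest mean among those with most values (0.63, adjusted p = 0.172), with the median of its probes (0.57, adjusted p = 0.0819), and in a fit to the contrasted arrays only (0.72, adjusted p = 0.100). Early differences were 0.12 ± 0.19 in WT and 0.11 ± 0.19 in KO, and neither passed (adjusted p = 0.851 and 0.930).

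The 3 Mdm2 probes moved by unequal amounts. The late WT difference was 0.40 for the first, 1.14 for the second and 0.63 for the third, and in KO they were 0.15, 0.57 and 0.29. All 6 of these were above 0, but the second probe reached -3.90 on the first WT array at 0 h. There the first probe read 0.711 and the third 1.495, each its highest WT value at 0 h. At 4 h in WT the first probe read 0.481, below that 0.711 and below its 0.707 at 0.5 h. The third probe read 1.543 at 4 h in WT and 1.629 at 2 h. Between pairs of the 3 probes r over 20 arrays ran from -0.36 to 0.51. Without the second probe, the one of lowest mean (an alternative chosen after seeing the data), the late WT difference was 0.51 ± 0.20 (adjusted p = 0.129).

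Ccng1 encodes cyclin G1, an atypical cyclin that p53 raises and that works with the phosphatase PP2A to act on Mdm2. Its levels at 0 h in WT were 2.02, 1.97 and 1.97. They were 1.90, 1.62 and 1.56 at 0.5, 1 and 2 h and 1.39, 1.01, 1.00 and 1.30 at 3, 4, 6 and 8 h. All 7 heated WT arrays lay below the 3 unheated ones, with the lowest levels at 4 and 6 h. The early WT window alone did so for 8.24% of all genes. In KO the levels at 0 h were 1.78, 1.46 and 1.68, followed by 1.30, 1.16 and 1.09 in the early window and by 0.53, 0.77, 0.55 and 0.52 in the late window. The 3 KO windows did not overlap each other (early below 0 h held for 9.2% of all genes and late below early for 13.7%), and the late KO levels lay below every other Ccng1 level of the series.

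Late in heat Ccng1 fell by 0.81 ± 0.14 in WT (n = 4 against 3), or 1.76-fold (limma, adjusted p = 0.00407), and by 1.05 ± 0.14 in KO, or 2.07-fold (adjusted p = 0.000498). It ranked 59 by p among the 10625 genes in WT and 19 in KO. In the late KO comparison Ccng1 alone of the 5 genes passed, where 10.7% of all genes tested did. Every late WT level was below every level at 0 h, which held for 10.6% of all genes, and every late KO level likewise, which held for 16.3%. The fall in KO was called under each of the 7 other settings and 7 omissions of an array that were run (-1.27 to -0.90 and -1.14 to -0.98). The fall in WT lost its call with 1 probe (-1.07, adjusted p = 0.0566) and in a fit to the contrasted arrays only (adjusted p = 0.0644), and under scaling of array width it was -0.52 (adjusted p = 0.0304).

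The early differences of Ccng1 did not pass, at -0.30 ± 0.15 in WT (adjusted p = 0.480) and -0.45 ± 0.15 in KO (adjusted p = 0.539, unadjusted p = 0.00792). In the early comparisons 0 of the 5 genes passed in WT, against 0.0376% of all genes, with 0 at an unadjusted p under 0.05, and 0 in KO, against 0% of all genes, with 2 at an unadjusted p under 0.05 by limma. Of all 10625 genes, 1202 in WT and 793 in KO had an unadjusted p that low. From the early to the late window Ccng1 fell by 0.59 ± 0.14 in KO (adjusted p = 0.0264, against 4.97% of all genes called), and the WT difference was -0.52 ± 0.14 (adjusted p = 0.105, against 0.0188% of all genes called). The KO call was lost in 4 of 7 omissions of an array, namely without 1 h (adjusted p = 0.0745), 0.5 h (0.0978), 6 h (0.0737) or 8 h (0.0831), and under 5 of 7 other settings (adjusted p = 0.0594 to 0.233). The late responses of the genotypes differed by 0.24 ± 0.20 (WT minus KO, 95% interval -0.19 to 0.66, adjusted p = 0.794), so a larger fall in KO was not shown.

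All 5 Ccng1 probes had differences below 0 in both late windows. The late WT differences of the single probes ran from -1.15 to -0.41 and the late KO differences from -1.27 to -0.56. The early WT differences ran from -0.96 on the fifth probe to 0.38 on the third. At 0.5 h in WT the second probe read 3.70 and the fifth 0.88, and probes 2 and 5 parted by up to 2.82. Pairs of the 5 probes correlated over the 20 arrays with r from 0.47 to 0.88, and 2 of the 5 probes list the same clone. Of the 4 genes with several probes, Ccng1 had the highest r between its probes, as the plot of single probes shows.

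**Figure D2:**
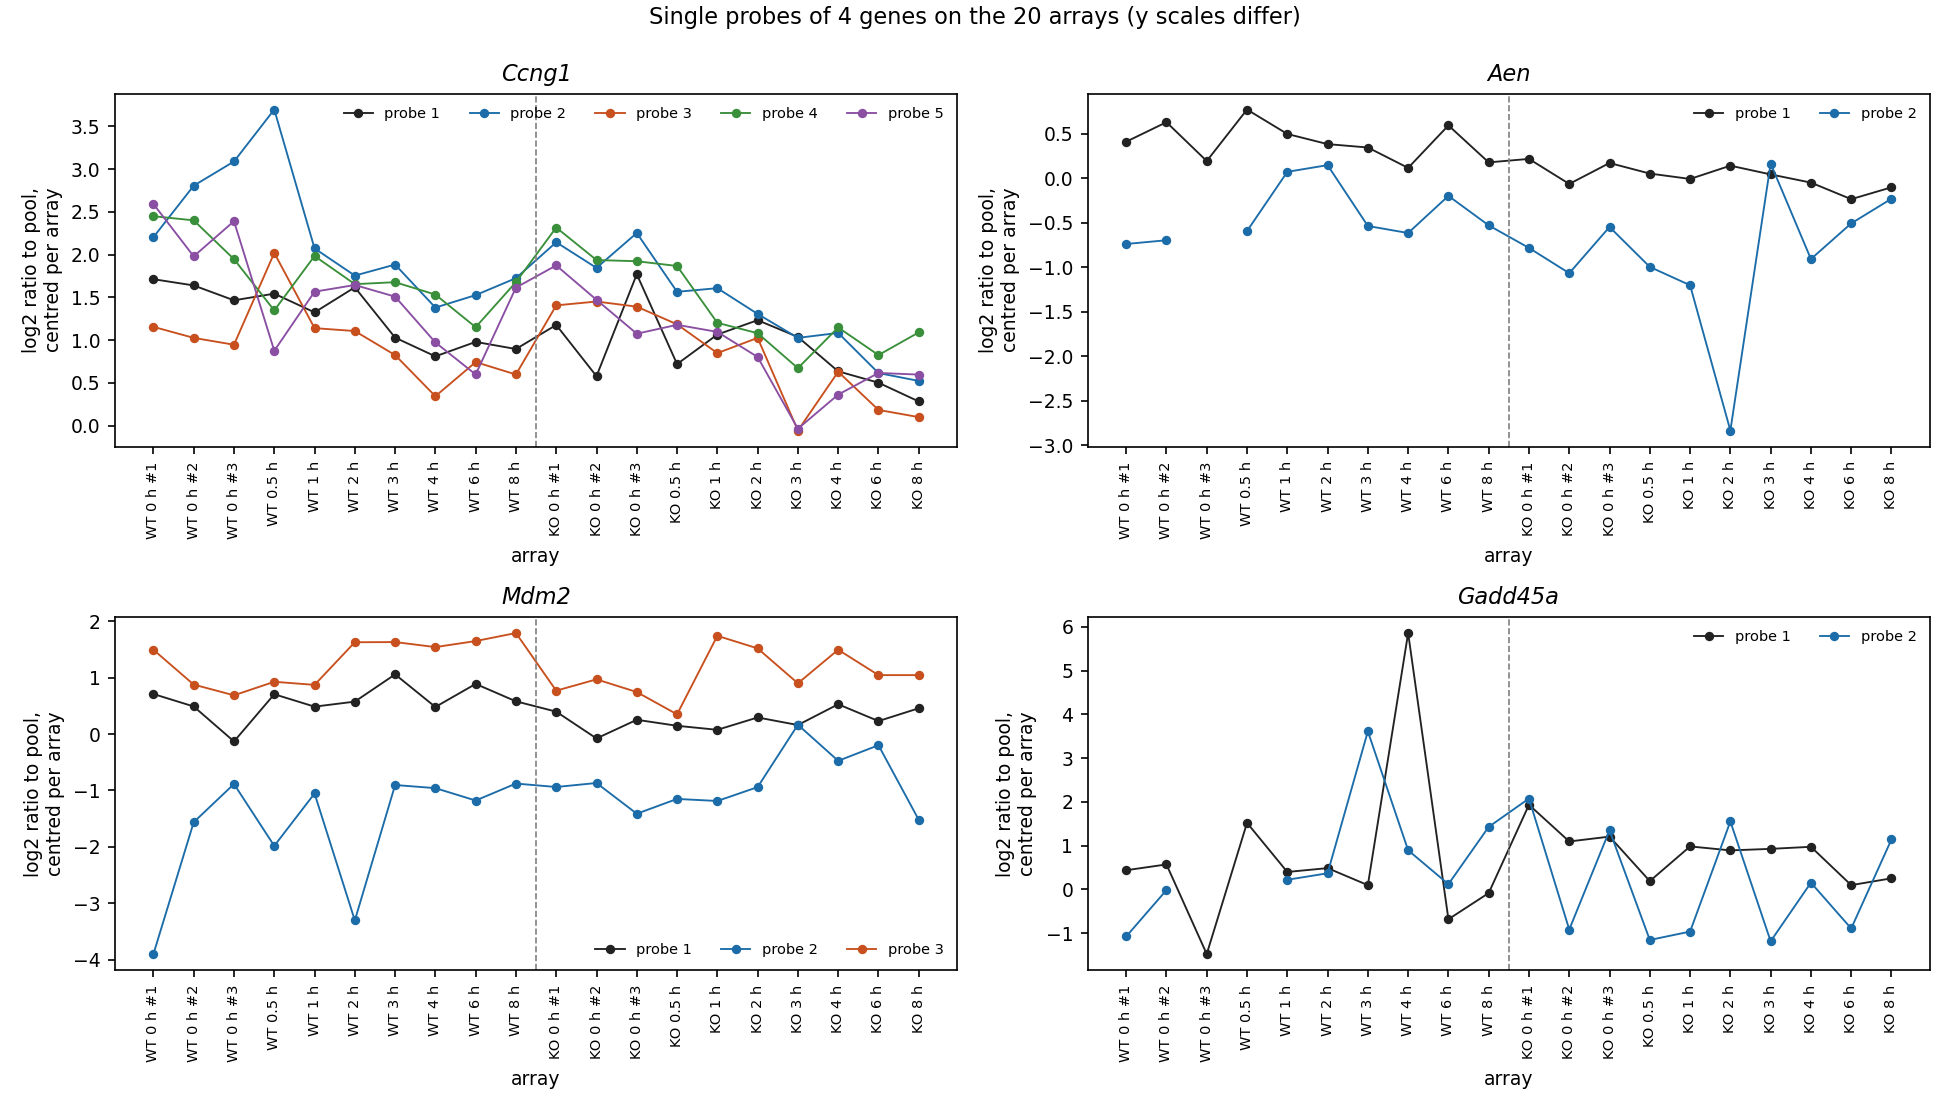
Log2 ratio to the pool, centred per array, of each single-gene probe of Ccng1, Aen, Mdm2 and Gadd45a on the 20 arrays, with WT to the left and KO to the right of the dashed line. The 5 Ccng1 probes are all lower in the late windows than at 0 h, but their early WT differences run from -0.96 to 0.38. The second Mdm2 probe drops to -3.90, the second Aen probe to -2.83 and the Gadd45a spots part by up to 4.96.

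Ccng1 was also lower in KO than in WT at each of the 7 heated times. The gap, KO minus WT, was -0.59, -0.45, -0.47, -0.86, -0.24, -0.45 and -0.78 at 0.5, 1, 2, 3, 4, 6 and 8 h. It was smallest at 4 h and largest at 3 h. Single probes did not all have KO lower at each time. At 0.5 h the fourth probe read 1.87 in KO and 1.35 in WT and the fifth 1.18 and 0.88. KO was also higher on the third probe at 4 h (0.631 against 0.345). On the first at 3 h (1.038 against 1.03) and the fifth at 6 h (0.617 against 0.599) it was barely higher. The other probe values at the heated times were lower in KO. With time as a block the mean gap was -0.55 ± 0.11 (n = 7 pairs of arrays, limma, adjusted p = 0.0244), and 1 of the 5 genes passed against 5.55% of all genes. A gap below 0 at all 7 times was found in 6.06% of all genes. The call was lost without the time block (adjusted p = 0.0768), under quantile normalization (-0.41, adjusted p = 0.0526), and on leaving out the WT array at 0.5 h (adjusted p = 0.0556), 3 h (0.0643), 6 h (0.0597) or 8 h (0.0699) or the KO array at one of these times (0.0517, 0.0649, 0.0596 and 0.0711).

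Before heat the KO levels of Ccng1 already lay below the WT levels without overlap, which held for 11.9% of all genes. That difference was -0.35 ± 0.15 and did not pass (limma, adjusted p = 0.199, unadjusted p = 0.0355). It was -0.01 under quantile normalization and -0.05 under scaling of array width. On single probes it was 0.37 for the third and -0.85 to -0.21 for the others. At 0 h 0 of the 5 genes passed, against 6.64% of all genes, with 2 of the 5 (Ccng1 and Gadd45a) at an unadjusted p under 0.05. An unadjusted p that low was found at 0 h in 2213 of all 10625 genes. Markers of cell types also differed between the genotypes. At 0 h, 3 of the 9 fibroblast markers measured passed, with Pdgfra (1.36) and Col3a1 (0.53) higher and Fn1 (-0.71) lower in KO, and 2 of the 34 markers of other cell types, the macrophage genes Fcgr1 (-1.13) and Cd68 (-0.83), were lower. Over the heated times 3 of the 9 fibroblast markers passed, with Pdgfra (1.22) and Col3a1 (0.55) higher and Col5a1 (-0.64) lower, and of the 34 others Pparg (0.61) was higher and Itgam (-1.32), Eng (-0.93) and Acta1 (-0.83) were lower. Of all genes 6.64% passed at 0 h and 5.55% over the heated times. The median of the 34 was -0.011 at 0 h and -0.11 over the heated times, and the part of these markers in the differences between genotypes was not tested.

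**Figure D3:**
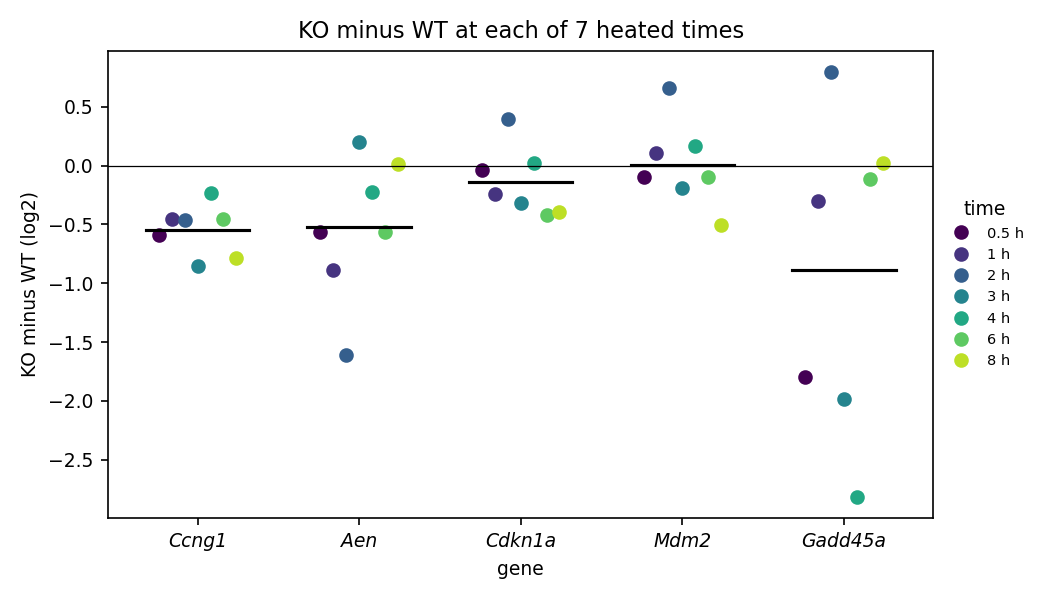
Difference KO minus WT in log2 level at each of 7 heated times for the 5 genes, 1 point per pair of arrays coloured by time, with the mean as a bar. All 7 Ccng1 points lie below 0, from -0.86 to -0.24, and the points of the other genes lie on both sides of 0.

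Cdkn1a encodes p21, the inhibitor of cyclin-dependent kinases through which p53 halts the cell cycle. Its levels at 0 h were 0.61, 0.47 and 0.49 in WT and 0.41, 0.09 and 0.06 in KO. Heated WT levels were 0.13, 0.67, 0.00, 0.28, 0.28, 0.08 and 0.19 at 0.5, 1, 2, 3, 4, 6 and 8 h. Heated KO levels were 0.09, 0.43, 0.39, -0.04, 0.30, -0.33 and -0.20 at the same times. The 1 h array was the highest of its genotype in both series, and the 4 late WT levels lay below the 3 at 0 h, as in 10.6% of all genes.

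None of these differences passed. The late difference was -0.31 ± 0.18 in WT (limma, adjusted p = 0.296) and -0.25 ± 0.18 in KO (adjusted p = 0.411), and the late responses differed by -0.06 ± 0.25 (95% interval -0.59 to 0.47, adjusted p = 0.975). KO minus WT was -0.34 ± 0.19 at 0 h (adjusted p = 0.343) and -0.14 ± 0.13 over the heated times (adjusted p = 0.567), with KO lower at 5 of 7. The values rest on 1 probe. Another 2 probes list Cdkn1a together with a second gene, and with them included (chosen after seeing the data) the late WT difference was 0.04 and the difference at 0 h was 0.07.

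Gadd45a encodes a small stress protein that binds p21 and PCNA and activates stress kinases. Its levels at 0 h were -0.32, 0.28 and -1.68 in WT and 2.01, 0.09 and 1.28 in KO. Heated WT levels were 1.32, 0.31, 0.43, 1.86, 3.38, -0.28 and 0.67 from 0.5 to 8 h, and heated KO levels were -0.48, 0.01, 1.22, -0.13, 0.57, -0.40 and 0.70. All 7 heated WT arrays lay above the WT mean at 0 h (-0.57) and 6 of 7 heated KO arrays lay below the KO mean (1.13). That WT mean was lowered by the level of -1.68, which rests on 1 spot. Without that array the late WT difference was 1.43, against 1.98 with it. The share of all genes with such counts was not computed. The late levels of each genotype overlapped those at 0 h, and the WT level at 6 h (-0.28) lay below the WT level of 0.28 at 0 h.

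The late difference was 1.98 ± 0.70 in WT (limma, adjusted p = 0.0948) and -0.94 ± 0.70 in KO (adjusted p = 0.446). The late responses differed by 2.92 ± 0.99 (WT minus KO, 95% interval 0.83 to 5.01, unadjusted p = 0.00891, adjusted p = 0.434). None passed. Leaving out 1 array, the late WT difference ran from 1.28 without the 4 h array (adjusted p = 0.244) to 2.55 without the 6 h array (adjusted p = 0.0428). The highest adjusted p was 0.409, without the first array at 0 h (difference 1.75). That omission leaves the second spot too few values to be used, so the first spot alone gave this value. The SD of the 3 levels at 0 h was 1.00 in WT and 0.97 in KO, against at most 0.28 for the other 4 genes. Both spots carry the same clone and had r = 0.11 over 18 arrays. They differed most at 4 h in WT, with 5.86 on the first and 0.90 on the second, and at 3 h in WT the first read 0.099 and the second 3.61. The second spot has no value on the third WT array at 0 h and on the WT array at 0.5 h, so the level there rests on the first spot alone.

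Aen encodes a nuclease that p53 raises and that helps break down DNA in dying cells. Its levels at 0 h were -0.17, -0.04 and -0.25 in WT and -0.28, -0.57 and -0.19 in KO. Early levels were 0.09, 0.28 and 0.26 in WT and -0.47, -0.61 and -1.35 in KO. The 3 early WT levels lay above those at 0 h, which held for 6.24% of all genes, and 2 of the 3 early KO levels lay below those at 0 h in KO. Late levels were -0.10, -0.25, 0.20 and -0.18 in WT and 0.10, -0.48, -0.37 and -0.17 in KO, and overlapped those at 0 h in both.

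The early difference was 0.36 ± 0.21 in WT (limma, adjusted p = 0.544) and -0.46 ± 0.21 in KO (adjusted p = 0.660). The early responses differed by 0.82 ± 0.30 (WT minus KO, 95% interval 0.19 to 1.45, unadjusted p = 0.0136, adjusted p = 0.582). That difference was 0.19 without the first WT array at 0 h and 0.30 without the second, omissions that leave the second probe too few values to be used, and 0.53 without the KO array at 2 h. The early KO difference was -0.19 without the KO array at 2 h and -0.046 with 1 probe. Between the early responses 0 of the 5 genes passed, against 0% of all genes, with 1 at an unadjusted p under 0.05. Between the late responses 0 of the 5 passed, against 0.0941% of all genes, also with 1. Of all 10625 genes, 889 (early) and 926 (late) had an unadjusted p that low. For the single probes the early difference between responses was 0.19 on the first and 1.47 on the second, whose level was -2.83 on the KO array at 2 h. The probes had r = 0.21 over 19 arrays, and the third WT array at 0 h has the first probe only. Over the heated times KO minus WT was -0.52 ± 0.21 (adjusted p = 0.179), with KO lower at 5 of 7 times.

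**Figure D4:**
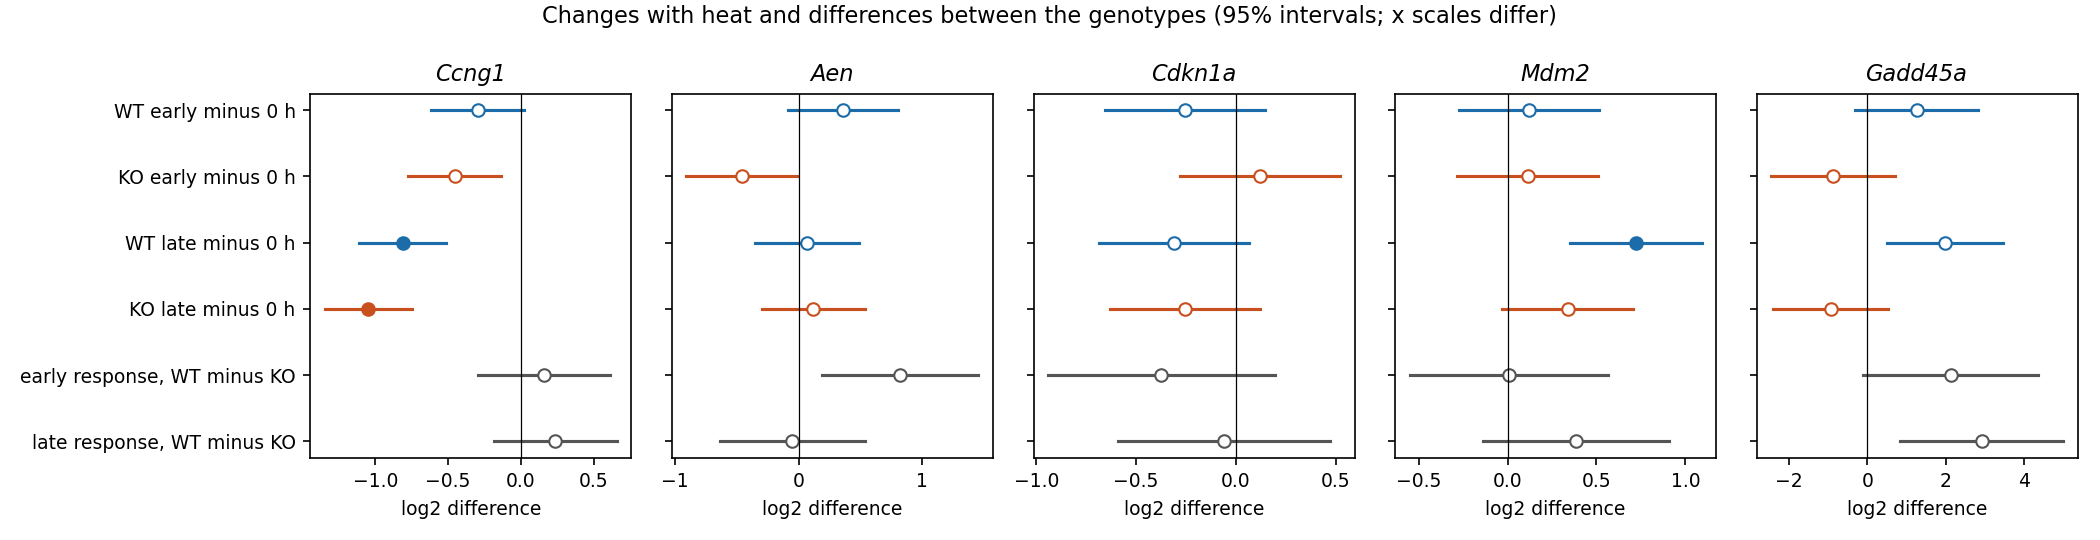
Log2 differences with 95% intervals from limma for the 5 genes, for the early and late windows against 0 h in WT (blue) and KO (orange) and for the difference between the genotypes' responses (grey). Filled points have an adjusted p under 0.05, which are Ccng1 late in WT and KO and Mdm2 late in WT, and none of the grey points is filled.

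The genes whose levels were most like those of each p53 target over the 20 arrays were found among the 9458 other genes with a value on every array. For Ccng1 they were Eif4g2 (r = 0.94; 0.95 within WT and 0.93 within KO), Hdlbp (0.93; 0.87 and 0.94) and Ap3m1 (0.93; 0.82 and 0.95), and 7.62% of all genes had an r with Ccng1 over 0.7. For Mdm2 they were Gm11563 (0.85), Trmt10c (0.78) and B4galt7 (0.76), with r of 0.86 to 0.90 within WT and 0.70 to 0.73 within KO. For Cdkn1a they were Fzd9 (0.85), Ddx3x (0.85) and Tlcd3a (0.85), with 0.67 to 0.76 within WT and 0.88 to 0.92 within KO. For Aen they were Eno3 (0.79), Ttc9 (0.76) and Epha4 (0.75), with 0.34 to 0.51 within WT and 0.71 to 0.77 within KO. For Gadd45a they were Sult1c2 (0.71), Nucb2 (0.70) and Klk1b5 (0.70). Within WT these had r of 0.81, 0.71 and 0.87 and within KO 0.30, 0.71 and 0.39, in the same order. The arrays share the pool, the genotypes and the time course. These r values are the highest of 9458 for each gene and describe these arrays only.

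A wider list of the p53 pathway held 109 genes, of which 71 were measured. The transcripts of p53 itself (Trp53) and of its inhibitor Mdm4 were not analysed here. In the late WT window 2 of the 71 rose and 3 fell (7.04%, against 7.27% of all genes). Rb1, the retinoblastoma protein that holds back the entry into S phase, rose by 1.06 ± 0.20 (limma, adjusted p = 0.00555), and Atr, a kinase of the DNA damage checkpoint, rose by 0.71 ± 0.21 (adjusted p = 0.0468). Thbs1, which encodes the secreted matrix protein thrombospondin 1, fell by 0.85 ± 0.17 (adjusted p = 0.00737). The antiproliferative Btg2 fell by 0.96 ± 0.27 (adjusted p = 0.0440) and the proapoptotic Siva1 by 0.85 ± 0.20 (adjusted p = 0.0197).

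In the late KO window 3 of the 71 rose and 1 fell (5.63%, against 10.7% of all genes). Rb1 rose there too, by 0.77 ± 0.20 (limma, adjusted p = 0.0172), and Thbs1 fell by 0.63 ± 0.17 (adjusted p = 0.0210). The receptor tyrosine kinase gene Epha2 rose by 1.22 ± 0.27 and the coactivator gene Crebbp by 0.54 ± 0.15. The median late difference of the 71 genes was -0.02 in WT and -0.04 in KO, and that of all genes was -0.02 in both. In the early windows, and between the early or the late responses of the genotypes, 0 of the 71 passed by limma, with 11 (WT early), 5 (KO early), 10 and 8 at an unadjusted p under 0.05. Of all 10625 genes, 1202, 793, 889 and 926 had such a p, in the same order.

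**Figure D5:**
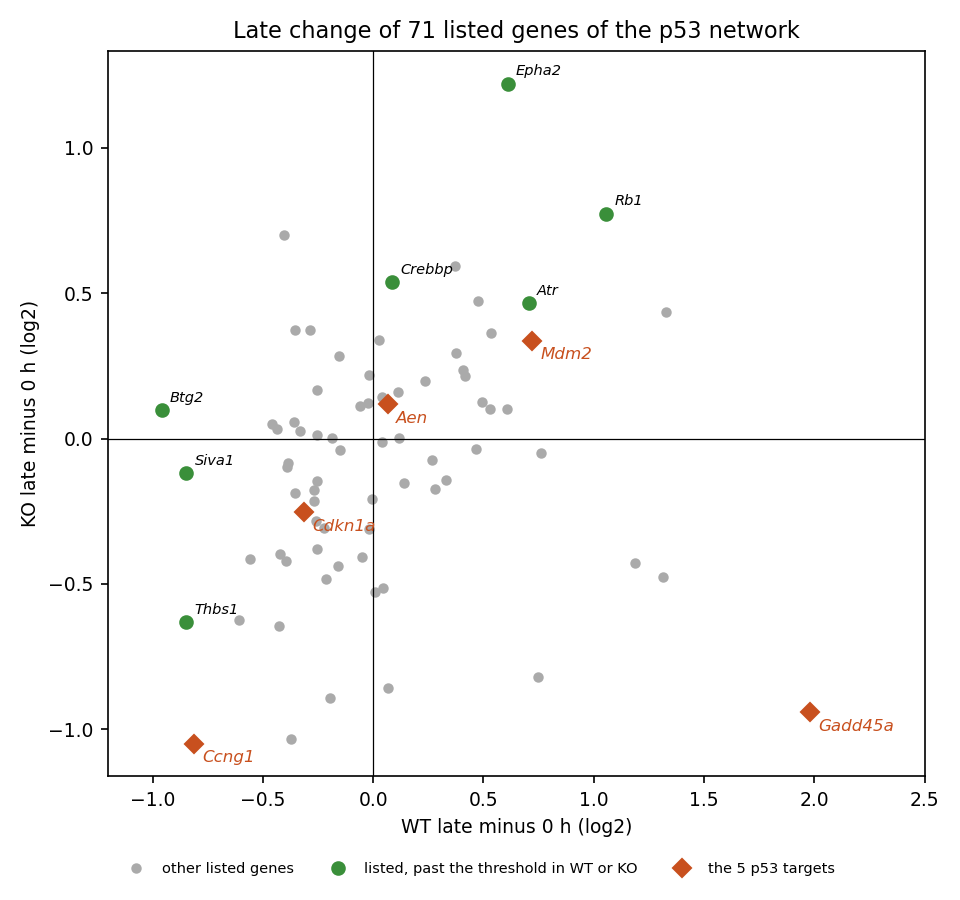
Late change from 0 h in WT (x axis) against KO (y axis), both in log2, for 71 listed genes of the p53 pathway (circles, green and named where the adjusted p was under 0.05 in either) and the 5 p53 targets (orange diamonds). Ccng1 lies low on both axes at -0.81 and -1.05, Mdm2 lies near Atr, and Gadd45a, which did not pass in either, lies at 1.98 and -0.94.

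At 0 h, 1 of the 71 was higher in KO than in WT and 7 were lower (11.3%, against 6.64% of all genes). The arrest gene Rprm was higher, by 0.72 ± 0.17 (limma, adjusted p = 0.0160). The lower ones were Rpl11 (-1.17 ± 0.18) and Rpl23 (-0.86 ± 0.17), ribosomal proteins that can bind Mdm2, the cyclin D2 gene Ccnd2 (-0.94 ± 0.13), Gpx1 (-0.91), Siva1 (-0.75), Btg1 (-0.72) and Bid (-0.68). Over the heated times with time as a block 2 of the 71 were higher in KO (Igfbp3 by 1.43 and Hipk2 by 0.69) and 3 lower (7.04%, against 5.55% of all genes), which were Rpl11 (-0.80), Bid (-0.59) and Ccnd2 (-0.54). From the early to the late KO window 0 of the 71 rose and 5 fell (7.04%, against 4.97% of all genes), and these were Thbs1 (-0.74), Pcna (-0.76), Cdkn2a (-1.30), Hdac1 (-1.17) and Igfbp3 (-1.45). The KO level of Igfbp3 was 2.99 at 1 h, against 0.72 at 0.5 h and 0.50 at 2 h. That array enters both its fall and its gap over the heated times. Of the genes named from this list, Atr, Btg2, Siva1, Epha2, Rprm, Hipk2, Cdkn2a and Hdac1 had 1 probe each.

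Among 16 family relatives of the 5 genes 13 were measured. Gadd45g, a relative of Gadd45a, was lower in KO at 0 h by 1.40 ± 0.35 (limma, adjusted p = 0.0230), with levels of -0.26, -0.47 and -0.32 in KO and 1.27, 1.07 and 0.80 in WT. It rose late in KO by 1.23 ± 0.33 (adjusted p = 0.0236), and the late WT difference was -0.25 ± 0.33. Between the late responses of the genotypes 0 of the 13 relatives passed, against 0.0941% of all genes. A rise of Gadd45g particular to KO was therefore not shown. Cdkn1b, which encodes the p21 relative p27, was higher in KO at 0 h by 0.75 ± 0.19 (adjusted p = 0.0226), and Cdkn1c by 0.52 ± 0.14. Cdkn2c fell late in KO by 0.71 ± 0.16 (adjusted p = 0.00750). Gadd45b had late differences of 0.56 ± 0.32 in WT and 0.55 ± 0.32 in KO, and Ccng2 of 0.24 ± 0.42 and -0.07 ± 0.42, and neither gene passed in these windows.

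Of 13 cyclins, kinases and partners held by p21, 12 were measured. Cdk1, the mitotic kinase, fell in the late window by 0.84 ± 0.19 in WT and by 0.93 ± 0.19 in KO (limma, adjusted p = 0.0135 and 0.00441), and no other of the 12 passed there (8.33% in each, against 7.27% and 10.7% of all genes). The median late difference of the 12 was -0.41 in WT and -0.51 in KO. Differences below 0 were 9 and 12 of the 12, against 51.8% and 51.9% of all genes, and these signs were not tested. Over the heated times 2 of the 12 passed (16.7%, against 5.55% of all genes), and Ccnd2 and Cdk6 were lower in KO, by 0.54 ± 0.11 and 0.60 ± 0.13 (adjusted p = 0.0233 and 0.0279).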

How the data were processed

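Values are the deposited log ratios of the series' value table, 1 per probe and array, which the authors made from Cy5 (sample) and Cy3 (pool) signals. The deposited values are taken as log2 ratios of sample over pool, which the authors computed from the 2 dyes, per the labels. No source names the logarithm's base. Values reach 10.2 in size, beyond the 4.82 that a log10 ratio of 16-bit signals could reach, and with natural logarithms the folds here would be too small. The authors' background correction, spot filters and normalization are not given in the sources used here. Signal intensities were not read, so signal over background was not examined, and the number of arrays limits the precision.

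Each array was centred on its median. Of 42624 probes, 21701 list 1 gene, 1124 several and 19799 none in the platform's annotation; 21650 of the single-gene probes were found in RefSeq by gene identifier, and 0 symbols changed. Only probes listing 1 gene were used, and a probe needed 2 values in each of the 6 groups. A gene is the mean of its probes, each relative to its own mean. Models were fitted with limma 3.58.1 in R 4.3.3 (lmFit, eBayes) to all 20 arrays with group as the only term, and to the 14 heated arrays with time as a block for KO minus WT. P-values are two-sided and Benjamini-Hochberg adjusted over 10625 genes in each of 10 comparisons, with 0.05 as the threshold. Nothing in the labels states that the arrays at 0 h stem from separate cultures. The p-values then measure only the spread between these samples, which may be technical. The labels name 1 scanner and no other batch.

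The 5 genes, the gene lists and the rules for named genes were chosen with earlier results of these data known. Named were the 5 genes, fixed relatives and heat shock genes, up to 4 genes per list and comparison with an adjusted p under 0.05 by smallest p, and the 3 genes most correlated with each of the 5. Replicate numbers at 0 h did not pair the arrays (same-number deviations from group means correlated with r from -0.02 to -0.0046). For heated arrays of the same time r was 0.0017 to 0.045 (early) and -0.023 to 0.056 (late). Arrays of other times had r from -0.067 to 0.023 and from -0.12 to 0.17, so these ranges overlapped. The time block of the heated comparison thus rests on the labels and not on a likeness of the arrays. The fits were tested on simulated data. Alternatives were no centring, quantile normalization, scaling of array width, other ways to join or filter probes, only the contrasted arrays, a replicate block and omission of each array.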

Additional observations from a re-analysis of the deposited data

Results flagged for a closer look

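The Ccng1 level of the KO array at 4 h, 0.773, stood apart from the other 3 late KO levels (0.52 to 0.55) by more than the 95% limit of Dixon's test for 4 values (its gap to the nearest was 0.882 of the range). It was 1 of 10 groups of 4 tested, and chance marks about 1 in 20. Without that array Ccng1 still fell late in KO (adjusted p within 0.000688 to 0.00405 over all omissions).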

How the results depend on the processing

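Of 78 recomputed values for the 5 called results, 51 kept direction and call, 27 kept direction and lost the call, and 0 turned direction. Calls lost were these. Mdm2 late in WT was 0.64 under quantile normalization, 0.63 with 1 probe per gene, 0.57 with the median of probes, 0.72 with only the contrasted arrays and 0.51 without its probe of lowest mean, which was chosen after seeing the data. Ccng1 late in WT was -1.07 with 1 probe and -0.81 with only the contrasted arrays. Ccng1 late against early in KO was -0.45 with no centring, -0.38 with scaling of array width, -0.68 with 1 probe, -0.51 with the median of probes and -0.59 with only the contrasted arrays. The heated Ccng1 gap was -0.41 under quantile normalization and -0.55 without the time block, and the fit with the time as a block is the one reported. Leaving out each array in turn gave -0.88 to -0.75 and -1.14 to -0.98 for Ccng1 late in WT and KO, -0.65 to -0.53 for KO late against early, -0.60 to -0.50 for the heated gap, and 0.56 to 0.81 for Mdm2 late in WT. Scaling of array width divided each centred array by its median absolute value. The cause of these changes was not tested.

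Some values that were not called turned sign. Not all lay near 0 as reported: Aen in KO late against early was 0.58 ± 0.20 (limma, adjusted p = 0.0969), and Cdkn1a was -0.34 at 0 h, -0.31 late in WT and -0.37 in the early response. Aen late was -0.10 in WT and -0.19 in KO, KO late against early -0.15, and the late response 0.091, each with 1 probe and with probes that have all values. Mdm2 in the early response was -0.069 (quantile normalization), -0.0099 (scaling of array width), -0.25 (1 probe), -0.0099 (median of probes) and -0.00033 (without the lowest probe). Mdm2 in KO late against early was -0.082 and -0.095 with 1 probe and the median of probes, its heated gap -0.28, -0.24 and -0.34 with 1 probe, the median and without the lowest probe, and its 0 h difference -0.19 and -0.18 with 1 probe and without the lowest. Gadd45a in KO late against early was 0.080 with no centring and 0.041 with scaling of array width. Cdkn1a in the late response was 0.036 under quantile normalization and 0.044 with scaling of array width. With the 2 probes of several genes, Cdkn1a was 0.068 at 0 h, 0.045 early and 0.042 late in WT and -0.041 early in KO, and its responses (WT minus KO) were 0.085 early and 0.15 late. Leaving out arrays, ranges that crossed 0 were -0.040 to 0.24 (Mdm2 early in WT), -0.10 to 0.12 (Aen late in WT), -0.15 to 0.13 (Mdm2, early response), -0.14 to 0.20 (Aen, late response), -0.17 to 0.063 (Cdkn1a, late response), -0.19 to 0.14 (Cdkn1a, WT late against early), -0.10 to 0.091 (Mdm2, heated gap) and -0.43 to 0.42 (Gadd45a, KO late against early).

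Counts of called genes moved over 1.5 times as follows. Early in WT (4) there was 1 with no centring, 2 under quantile normalization, 0 with scaling of array width, 0 with the median of probes, 2 with probes that have all values and 0 with only the contrasted arrays. Late in WT (772) there were 462 under quantile normalization, 371 with scaling of array width and 164 with only the contrasted arrays. WT late against early (2) gave 1 with no centring, 9 under quantile normalization, 0 with 1 probe, 12 with all values and 0 with only the contrasted arrays. KO late against early (528) gave 851 with 1 probe and 0 with only the contrasted arrays, and 0 h (705) gave 109 with only the contrasted arrays. The early response (0) gave 1 with all values and the late response (10) gave 0 with no centring. Leaving out each array gave 423 to 730 at 0 h, 0 to 18 and 385 to 824 early and late in WT, 0 to 6 and 523 to 1100 in KO, 0 to 175 and 49 to 554 for late against early in WT and KO, 0 to 5 and 0 to 6 for the early and late responses, and 340 to 491 for the heated gap. With no centring the median of all genes moved to 0.16 at 0 h, 0.19 early in WT, -0.12 early in KO, 0.31 for the early response, and -0.14 and 0.17 from early to late in WT and KO.

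The replicate block at 0 h gave 448 called genes at 0 h, and 0 for either response. It changed no call of the 5 genes, and the numbers do not pair the arrays.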
